A study of Oryzias latipes with 4 samples.

Results

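Messenger RNA of the 2 neurophysin hormone genes of medaka (Oryzias latipes), a small freshwater teleost, was followed in female brain under short and long days. The genes carry the symbols oxt and LOC101160739. Members were the rows of the deposited expression table whose best BLAST hit carries either gene tag. They are 2 of the 20707 named genes in that table, and each is held by a single row. The RefSeq gene table of assembly ASM223467v1 gives oxt the synonyms vasotocin and vt, although its symbol and its protein description (oxytocin-neurophysin 1 precursor) are those of oxytocin. It gives LOC101160739, described as isotocin-neurophysin IT 1-like precursor, the synonyms isotocin, it, OXT and oxytocin. The genes are called vasotocin gene and isotocin gene here after the synonyms vasotocin and isotocin, and the peptide sequences were not used to check the names.

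Fish obtained from a local dealer were kept under short days (SD). They then either stayed under short days or went to long days (LD) for 16 h before tissue was taken. Ventral telencephalon, hypothalamus and pituitary were dissected together from 6 female fish per condition, and no genotype, strain, age or day length in hours is given in the sources used here. Each group has 2 libraries, named SD 1, SD 2, LD 1 and LD 2, and the labels do not say which fish went into which library. A p-value therefore covers only the variation among these 4 libraries, part of which may be technical. Where 4 values follow each other for a gene, they are in the order SD 1, SD 2, LD 1, LD 2.

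Vasotocin and isotocin are the fish counterparts of vasopressin and oxytocin. Each is cut from a precursor that also holds neurophysin, a carrier that stays with the hormone in the secretory granule. The neurons that make them lie in the preoptic area and send their axons to the posterior pituitary, from which the hormones enter the blood. Vasotocin is known for its part in water balance, stress and social behaviour, and isotocin for social and reproductive behaviour. In bulk tissue, fewer cells of a type and less RNA per cell cannot be told apart.

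Both genes lie on chromosome 9 in the coordinates of the deposited table, on the plus strand and 37624 bases apart. The isotocin feature spans 7693456 to 7695443 and the vasotocin feature 7733068 to 7734797. Each hit has 3 coding segments. The first segment is 120 bases and the second 205 bases long in both genes, and the last is 137 bases in vasotocin and 143 in isotocin. The coding lengths of 462 and 468 bases correspond to precursors of 153 and 155 amino acids. The introns differ more than the coding segments, with 743 and 106 bases in vasotocin against 297 and 880 in isotocin. The features are 881 bases (vasotocin) and 811 bases (isotocin) long, so each holds sequence outside the coding segments too.

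The vasotocin gene differed widely between libraries of the same group. Its level was 53.9 FPKM (a fragment count divided by feature length and by the library's mapped total) for SD 1 and 152.8 for SD 2, against 270.3 for LD 1 and 60.8 for LD 2. LD 1 stood above both SD libraries and LD 2 between them, so the groups overlapped. The libraries differed 2.83-fold within SD and 4.45-fold within LD. The LD mean was 1.60 times the SD mean, which is a ratio of means and not of single libraries. Levels were 103.4 ± 69.9 FPKM under SD and 165.5 ± 148.1 under LD (mean and standard deviation of 2 libraries each). In the fit over all genes the log2 difference, LD minus SD, was 0.49 with a standard error of 0.82 on the log2(FPKM + 1) scale (limma adjusted p = 0.928). The 95% interval ran from -1.62 to 2.61, that is from 0.325-fold to 6.11-fold. The sign rested on single libraries: the log2 difference was -0.25 without SD 1 and -0.57 without LD 1, against 1.24 without SD 2 and 1.56 without LD 2.

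The isotocin gene had a higher LD mean as well, again with overlapping groups. Its level was 103.5 FPKM for SD 1 and 211.8 for SD 2, against 182.4 for LD 1 and 308.1 for LD 2. SD 1 was the lowest library and LD 2 the highest, but SD 2 exceeded LD 1. The libraries differed 2.05-fold within SD and 1.69-fold within LD, and the LD mean was 1.56 times the SD mean (157.6 ± 76.6 and 245.2 ± 88.9 FPKM, n = 2 libraries each). The log2 difference was 0.68 with a standard error of 0.41 and a 95% interval from -0.37 to 1.72, or 0.775-fold to 3.29-fold (limma adjusted p = 0.81). Its sign was the same without each library in turn, and its size was 0.16 without SD 1, 1.19 without SD 2, 1.05 without LD 1 and 0.30 without LD 2. Neither of the 2 genes passed the adjusted threshold of 0.05, which 0.0116% of the 17252 genes and features tested passed. For neither did the groups separate, while the 2 LD libraries lay entirely on 1 side of the 2 SD libraries for 37.1% of genes and features tested.

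**Figure D1:**
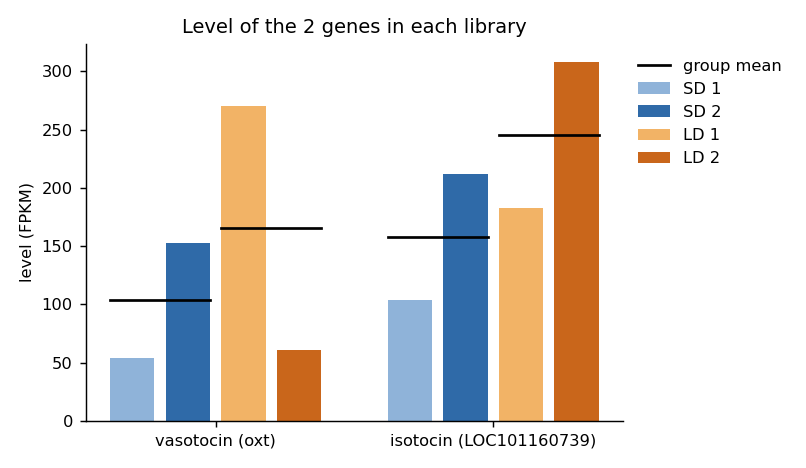
Level of the vasotocin gene (oxt) and the isotocin gene (LOC101160739) in FPKM, 1 bar per library, with the group mean as a black line. Vasotocin was highest in LD 1 (270.3) and lowest in SD 1 (53.9), and isotocin was highest in LD 2 (308.1) and lowest in SD 1 (103.5).

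The proportion of the 2 messages also varied most within the long-day group. FPKM is scaled to feature length, so levels of the 2 genes can be set side by side. The isotocin level was 1.92, 1.39, 0.675 and 5.07 times the vasotocin level. Isotocin was thus the more abundant message in SD 1, SD 2 and LD 2, and vasotocin in LD 1. Vasotocin made up 34.3% of the summed level of both genes in SD 1 and 41.9% in SD 2, against 59.7% in LD 1 and 16.5% in LD 2, so the LD libraries bracketed the SD libraries. The log2 ratio of isotocin to vasotocin was 0.71 ± 0.33 under SD and 0.89 ± 2.06 under LD (mean and standard deviation of 2 libraries each). Its difference of 0.18 gave p = 1.0 in an exact two-sided permutation test over 6 splits, where the smallest p that this design allows is 0.333. Without SD 2 the difference was -0.05 and without LD 2 it was -1.27. The summed level of both genes was 157.4, 364.6, 452.6 and 368.8 FPKM. By that sum SD 1 stood lowest, and the other 3 libraries lay within a narrower range that held libraries of both groups.

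Set beside other abundant genes, both hormone genes were among the least repeatable within a group. With a mean of 201.4 FPKM, isotocin ranked 284 of 15297 named genes tested, and vasotocin, with 134.4 FPKM, ranked 462. For scale, 5095 named genes averaged 20 FPKM or more, and on the log2(FPKM + 1) scale the SD libraries differed by a median of 0.0968 over these genes and the LD libraries by 0.0833, signs left out. For vasotocin, SD 2 exceeded SD 1 by 1.48 (rank 10 of 5095) and LD 2 minus LD 1 was -2.13 (rank 2). For isotocin, SD 2 exceeded SD 1 by 1.03 (rank 26) and LD 2 exceeded LD 1 by 0.75 (rank 30). The libraries thus deviated the same way for both genes in SD, where SD 2 was higher, and opposite ways in LD. The pooled within-group standard deviation was 1.3 for vasotocin and 0.64 for isotocin on the log2(FPKM + 1) scale, ranks 2 and 26, against a median of 0.078. These ranks describe the 4 libraries and are not tests.

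**Figure D2:**
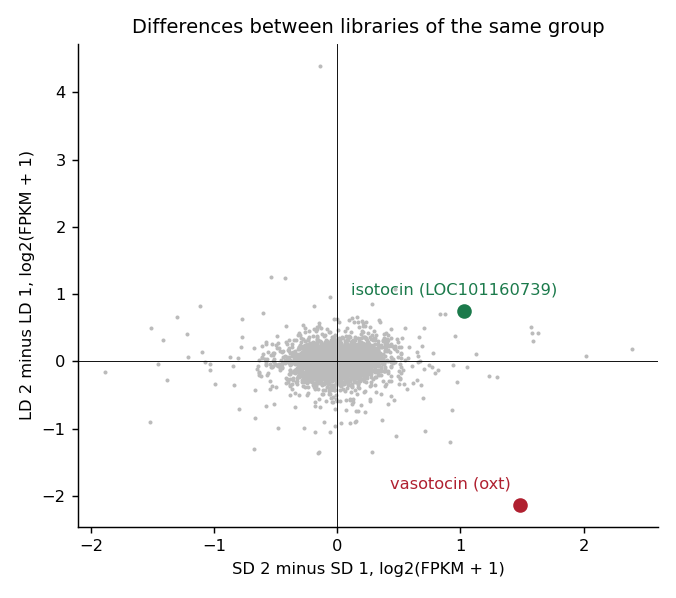
Difference in log2(FPKM + 1) between the 2 SD libraries (x axis) and between the 2 LD libraries (y axis) for the 5095 named genes averaging 20 FPKM or more, 1 point per gene. By absolute difference, vasotocin (1.48, -2.13) ranks 10 on the x axis and 2 on the y axis. Isotocin (1.03, 0.75) lies to the upper right of the main cloud.

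An approximate depth can be read from the low values. The most frequent product of FPKM and feature length among the nonzero values of each library was used as its step. This step was taken as 1 fragment. On that scale vasotocin stood at about 1045, 4361, 5764 and 1284 fragments, and isotocin at about 1845, 5564, 3581 and 5993. SD 2 was the deepest library by the same measure, at 1.47 times the depth of SD 1, and LD 1 and LD 2 had 1.10 and 1.09 times that depth. A share of 6.82% to 7.09% of the nonzero values per library fell below the step (by over 2%), so whole counts were not recovered and the fragment numbers are approximate.

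Tested genes around the pair had narrower ranges than the hormone genes. Within 100000 bases of the pair the table holds 16 other named genes, of which 11 reached a mean of 1 FPKM, and none of these 11 passed the threshold. Between the 2 hormone genes lie 4 of them. LOC101162607, which encodes subunit 12 of the mediator complex, a coactivator of RNA polymerase II, stood at 53.5, 54.4, 53.8 and 56.9 FPKM. Its highest library was 1.06 times its lowest. The RING finger gene ubox5, the nearest annotated gene upstream of vasotocin in the table, stood at 7.61, 7.68, 6.23 and 8.24 FPKM. The fatty acid-binding protein gene LOC101160985, next to isotocin, was below the filter (0.503 to 0.970 FPKM), and the SMYD1 gene LOC101161247, a histone methyltransferase of muscle, was listed at 0 in every library.

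Outside the pair, the mitochondrial ATP synthase alpha gene LOC101160076 was the most abundant neighbour, at 279.7, 293.2, 296.5 and 315.5 FPKM. The phosphatase gene LOC101163582 (CDC14A) had the narrowest range of the 11, with 1.04-fold between highest and lowest library. The mitochondrial ribosomal gene mrps27, the F-box gene fbxl17 and the ubiquitin ligase gene LOC101161644 had ranges of 1.12-fold, 1.09-fold and 1.11-fold, and the nucleotide sugar transporter gene LOC101163088 1.12-fold. Wider ranges were seen for znf367 (2.55-fold, near the filter at 0.865 to 2.21 FPKM), aaed1 (2.01-fold) and znf366 (1.55-fold). The library order of znf367 was that of isotocin. Its SD libraries differed 1.88-fold and its LD libraries 2.05-fold, against 2.05-fold and 1.69-fold for isotocin. Log2 differences of the 11 genes lay between -0.51 for aaed1 and 0.22 for znf367. LOC101161894, LOC101162133 and LOC101163333 were below the filter, each under 0.5 FPKM in all libraries. A feature of znf366, a gene on the opposite strand, overlaps the isotocin feature by 1758 bases. Summed over its 3 features, znf366 stood at 2.69, 2.83, 4.19 and 2.69 FPKM, far below isotocin. The highest library of that sum, LD 1, was not that of isotocin. The library order of the overlapping feature alone was not examined.

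**Figure D3:**
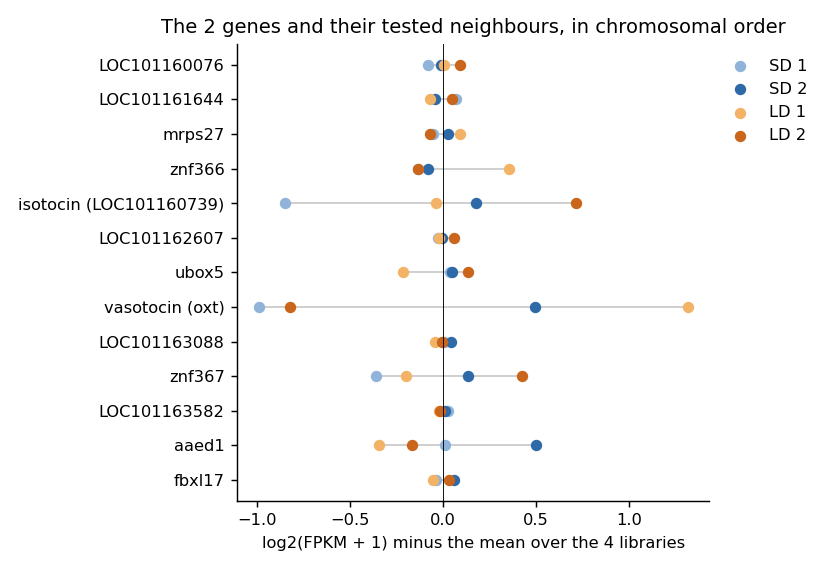
Log2(FPKM + 1) minus its mean over the 4 libraries (x axis) for the vasotocin and isotocin genes and their 11 tested neighbours in chromosomal order (y axis), 1 point per library. The points span 2.3 units for vasotocin and 1.56 for isotocin, and at most 0.844 for a neighbour.

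Receptors for the 2 hormones were transcribed at low levels. They are G protein-coupled receptors, the V1 types and the oxytocin type acting through calcium and the V2 type through cyclic AMP in mammals. The table holds 7 such genes, and 5 reached a mean of 1 FPKM, all between 1.49 and 3.28 FPKM in every library. The oxytocin receptor gene oxtr stood at 2.11, 2.05, 1.70 and 1.49 FPKM, and avpr2, a V2 receptor gene, at 2.90, 3.28, 2.66 and 2.65. For these 2 of 5 genes both LD libraries lay below both SD libraries, a pattern shown by 20.8% of all genes and features tested. Their log2 differences were -0.25 ± 0.16 (standard error) for oxtr and -0.16 ± 0.14 for avpr2 (limma adjusted p = 0.819 and 0.852).

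Groups overlapped for the other 3 tested receptor genes. The vasotocin receptor gene v1ar2 was the most abundant, at 3.19, 2.69, 3.21 and 3.18 FPKM. Its relative v1ar1 stood at 1.75, 1.72, 1.65 and 2.28, and nft-vtr, described as V1b receptor-like, at 2.65, 2.25, 2.28 and 1.72. The adjusted p of these 3 genes lay between 0.854 and 0.928 in limma. Below the filter stayed the isotocin receptor-like gene itr1 (0.258, 0.317, 0.195 and 0.238 FPKM), whose LD libraries were both below its SD libraries, and a second V2 receptor-like gene, LOC101170270 (0.0754 to 0.643 FPKM). No receptor gene passed the threshold, and the widest range among the 5 tested was 1.54-fold, for nft-vtr.

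Genes that build and equip neurosecretory neurons varied little beside the hormones themselves. Of 6 transcription factor genes known from mouse or zebrafish to be needed for such neurons, 5 were tested. The more abundant orthopedia gene, LOC101157220, stood at 38.0, 42.8, 43.8 and 37.9 FPKM, and otp at 10.1, 11.1, 11.4 and 11.1. All 5 had log2 differences above 0 (0.015 to 0.217, median 0.08), as had 7989 of all 17252 genes and features tested, and none passed the threshold. The lowest, 0.015 for LOC101157220, had a standard error of 0.10. For 1 of them, sim1, both LD libraries (4.75 and 4.51 FPKM) exceeded both SD libraries (3.997 and 3.70), as for 16.3% of all genes and features tested.

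As a list, prohormone processing had the narrowest ranges of the pathway, by median (1.068-fold) and by maximum (1.12-fold). The convertase pcsk2, which cuts prohormones in the granule, stood at 371.6, 361.0, 366.7 and 350.8 FPKM. The carboxypeptidase gene cpe, which trims the cut ends, stood at 314.3, 297.3, 307.7 and 305.8. Of the 5 genes on this list 3 had positive and 2 negative log2 differences (median 0.005), none passed the threshold, and their ranges were at most 1.12-fold. Among 9 granule and exocytosis genes, snap25 (849.4 to 883.0 FPKM) and a secretogranin-2 gene, LOC101172108 (549.1 to 612.0), were the most abundant, and again none passed the threshold. Groups separated for 3 of the 9, against 37.1% of all genes and features tested. Chromogranin A (chga) was higher in both LD libraries, and scg3 and chgb, granule cargo proteins, were lower in both.

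The leucyl-cystinyl aminopeptidase gene LOC101154957, which encodes an enzyme that breaks down oxytocin and vasopressin in mammals, stood at 20.6, 23.7, 18.7 and 19.2 FPKM. LOC101168658, an ADP-ribosyl cyclase gene related to mouse CD38, which takes part in oxytocin release, stood at 19.6, 14.2, 21.3 and 15.9. Neither passed the threshold (limma adjusted p = 0.794 and 0.919).

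The sex steroid receptor list by description also caught membrane receptors and their partners. Of its 10 tested genes 9 had negative log2 differences, as had 9263 of all 17252 genes and features tested. The median was -0.25 for the list against -0.01 for all genes and features tested. Both LD libraries lay below both SD libraries for 6 of the 10 and above for 1, against 20.8% and 16.3% of all genes and features tested, and none passed the threshold. The most abundant was pgrmc1, a membrane-associated progesterone-binding protein, at 14.7 to 18.02 FPKM, followed by ar-alpha, an androgen receptor gene, at 6.88 to 8.59.

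Other tested neuropeptide precursors on the list did not show the range of the 2 hormone genes. Among 12 tested, the highest library was at most 1.64 times the lowest, against 5.01 for vasotocin and 2.98 for isotocin. Below the filter stayed 2 more, ucn3 at 0 in every library and gnrh2 at 0 to 1.445 FPKM. The appetite peptide gene npy stood at 159.0, 163.8, 121.0 and 155.4 FPKM. The corticotropin-releasing hormone gene crh, which in fish is also made in preoptic neurons, stood at 63.4, 75.8, 65.1 and 72.7. Both LD libraries were below both SD libraries for 4 of the 12 and above for 1, against the same 20.8% and 16.3%, and none passed the threshold. Over all 7 lists of the pathway, 48 genes were tested and 0 passed (limma). An unadjusted limma p under 0.05 was found for 5 of the 48, against 6.32% of all genes and features tested. These 5, 3 neuropeptide and 2 sex steroid receptor genes, all had negative log2 differences. Ranges of the 48 genes over the 4 libraries had a median of 1.299-fold and a maximum of 2.06-fold. No tested gene on these lists thus reached the range of either hormone gene. Some pituitary hormone genes, on none of these lists, had wider ranges than isotocin. The range was 51.8-fold for prl (0.0649 to 3.36 FPKM), 29.9-fold for the thyrotropin beta gene LOC105354380 and 3.48-fold for the somatotropin gene LOC101171460. Both LD libraries were below both SD libraries for 5 of the 9 pituitary markers and above for 0. The shares over all genes and features tested were again 20.8% and 16.3%. LOC105354380 and LOC101171460 were among the 5. Pituitary markers other than prl, LOC105354380 and LOC101171460 had narrower ranges than isotocin.

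**Figure D4:**
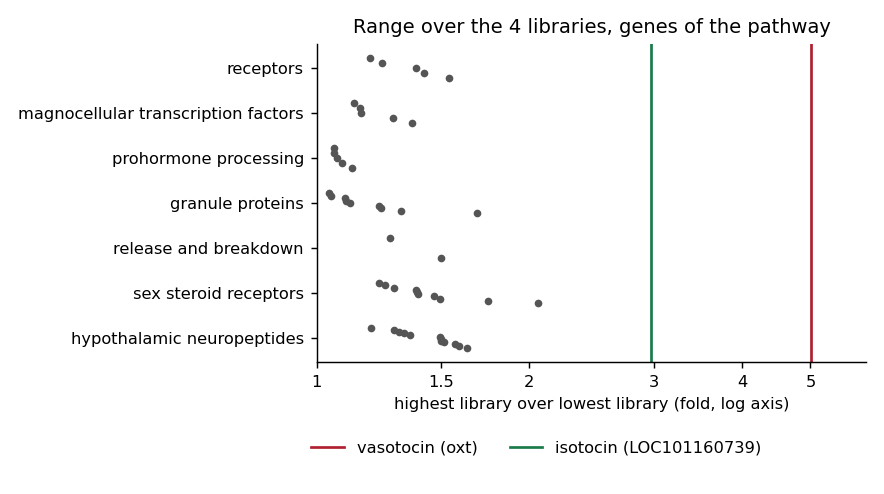
Highest library divided by lowest library (x axis, log scale) for each tested gene of 7 pathway lists (rows), 1 point per gene, with vertical lines for the vasotocin gene (5.01) and the isotocin gene (2.98). All points lie to the left of both lines, at 2.06 or less.

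A few abundant genes followed the 2 hormone genes over the 4 libraries. Likeness was measured as the root mean square distance between log2(FPKM + 1) values centred over the 4 libraries, among the 5094 other named genes averaging 20 FPKM or more. Nearest to vasotocin was LOC101162572, a WNK1 kinase gene, at 31.4, 60.3, 79.4 and 33.9 FPKM (distance 0.404, where a flat profile would be at 0.952). It had the same order of libraries as vasotocin with a smaller range, 2.53-fold. Next came a sodium/potassium ATPase alpha-2 gene (LOC101161996, 0.528), the cytokine receptor subunit gene il6st (0.543), a carbonic anhydrase gene (LOC101161087, 0.556) and a macrophage-expressed gene 1 relative (LOC101165946, 0.602). All 5 were higher in SD 2 and LD 1 than in SD 1 and LD 2.

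Nearest to isotocin was the potassium channel gene LOC105353871, at 16.2, 26.4, 28.7 and 37.1 FPKM (distance 0.190, where a flat profile would be at 0.563). It was followed by LOC101158164, described as the oligosaccharyltransferase subunit DAD1 (0.249), and by LOC101169944, LOC111947723 and LOC101169455 (0.257 to 0.278). The last 3 are described as heat shock 70 kDa protein 1 or 1-like, chaperones that stress induces. Reads may be shared between such genes, whose sequences were not compared. LOC101169944 stood at 13.4, 41.8, 39.6 and 56.6 FPKM, lowest in SD 1 and highest in LD 2 like isotocin. Ranges of the 3 heat shock genes, 4.07-fold to 4.24-fold, were wider than the 2.98-fold of isotocin. The distance between the 2 hormone genes was 1.04, larger than that of either from a flat profile. With 4 libraries many profiles can look alike, and these distances describe the libraries without a test.

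**Figure D5:**
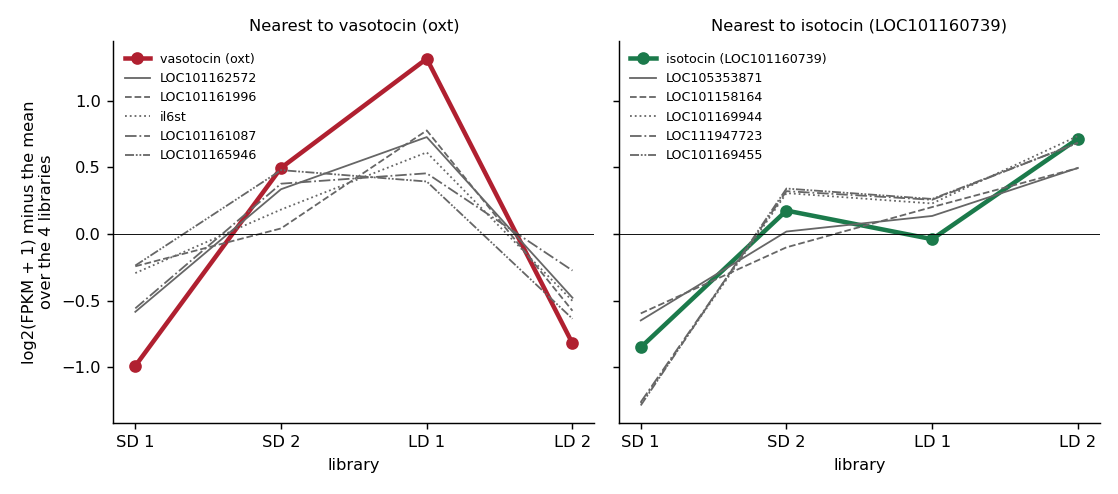
Log2(FPKM + 1) minus its mean over the 4 libraries (y axis) by library (x axis) for vasotocin (left) and isotocin (right), in colour, and for the 5 nearest genes of each, in grey. Lines only join the values of 1 gene, since libraries have no order. Vasotocin and its neighbours peak in LD 1 or SD 2, and isotocin and its neighbours in LD 2.

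Markers of the block were measured beside these values. Of the hypothalamic and preoptic markers, 7 were matched and all were tested. Most of them, npy and crh included, also stand on the pathway lists, so they are not a separate set of genes. Genes described as orthopedia B or as POU domain class 3 factor 2 were counted only with the transcription factors. The summed level of the 7 genes was 279.2, 302.7, 252.5 and 282.9 FPKM. The sum was lowest in LD 1, as was npy, its most abundant member. The median over these 7 genes of log2(FPKM + 1), centred over the libraries, was -0.0637, 0.0407, 0.057 and 0.0205, which is the library order of vasotocin over a far smaller range. The part of the hypothalamic share of the block in the vasotocin values was not tested. Telencephalic markers (6 found) summed to 137.7, 117.3, 117.2 and 136.1 FPKM, which is the reverse of the library order of vasotocin. Their median centred value, 0.11, -0.0421, -0.0849 and -0.0102, had the same reversed order. The part of the telencephalic share of the block in the vasotocin values was not tested. Neuronal and glial markers (8 found) summed to 3078 to 3389 FPKM. Pituitary hormone cell markers (9 found) summed to 3005 and 3283 FPKM for the SD libraries and to 2136 and 1916 for the LD libraries, so the groups did not overlap there. Of these markers, 1 passed the threshold, the somatotropin gene LOC101171460, at 913.5, 866.2, 262.9 and 273.5 FPKM (limma adjusted p = 0.0248). The 12 hemoglobin genes summed to 6085, 8369, 9132 and 7412 FPKM, which is the library order of vasotocin over a narrower range. Of them, 2 were listed at 0 throughout. The abundant beta-1-like and alpha-1-like genes had the order of the sum, but not every member did. LOC101174997, also abundant, stood at 1498, 1894, 1836 and 1924 FPKM, which is the library order of isotocin. LOC101155030, at most 11.55 FPKM, was highest in SD 1. The myelin genes mbp and mpz together were highest in LD 1, as was the hemoglobin sum. Their summed level was 269.0, 282.7, 426.5 and 221.1 FPKM. The part of blood or myelin in the vasotocin values was not tested.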

How the data were processed

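The authors deposited 1 table of FPKM with 1 column per library, per the file headers, holding 93896 features with a locus, a length in bases and a best BLAST hit. Per the submitters' processing notes the tools were HISAT2 2.0.5 as well as StringTie 1.3.3b, with no settings given. Per the labels' protocols the library kit was TruSeq stranded mRNA. The build behind the coordinates is not stated.

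Features were named after a hit that overlapped them (46410 of 52142 features with a hit, 89.0%), and FPKM values sharing a gene identifier were summed, for 68193 units. The RefSeq table, used for names only, held each of the 20915 gene identifiers. Units with a mean of at least 1 FPKM (17252, of which 15297 are named genes) went into limma 3.58.1 (R 4.3.3) as log2(FPKM + 1), with group as the only term. Variances were moderated towards a trend with mean level, and two-sided p-values were adjusted after Benjamini and Hochberg (threshold 0.05). Fold changes on this scale understate those of low genes. Python 3.11.15, pandas 2.3.3 and matplotlib 3.10.9 were used for tables and plots. The fit was also run on simulated data. Values there were drawn independently for each gene, so that run cannot speak to deviations shared by many genes of a library.

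The members and lists were chosen with earlier results of these data known. From each pathway list the 2 members with the highest mean were named (no member passed the threshold), and from the marker lists the gene past the threshold. Every receptor, every gene within 100000 bases and the 5 nearest profiles per hormone gene were named too. Further genes (sim1, chga, scg3, chgb, prl, LOC105354380 and single hemoglobin genes) and the summed hemoglobin and myelin values were chosen after their values were seen. Alternatives were another pseudocount, other filters, other variance settings, a replicate block, rescaling, naming by tag alone, features not summed, and leaving out each library.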

Additional observations from a re-analysis of the deposited data

How the results depend on the processing

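For vasotocin the log2 difference lay between 0.49 and 0.52 in the 8 alternatives with all libraries and between -0.57 and 1.56 with 1 library left out. It reversed without SD 1 (-0.25) and without LD 1 (-0.57). For isotocin the values were 0.68 to 0.70 and 0.16 to 1.19. Neither gene passed the threshold in any of its 12 alternatives (limma adjusted p between 0.788 and 0.983 for vasotocin and between 0.566 and 0.968 for isotocin). The log2 ratio of isotocin to vasotocin differed between groups by -1.27 to 1.64 with 1 library left out, reversing without SD 2 (-0.05) and without LD 2 (-1.27). The v1ar1 difference reversed without LD 2 (-0.044) and was at most 0.263, without LD 1. No gene of the pathway lists passed in the 12 alternatives run for them.

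The count over all genes, 2, was 1 with a pseudocount of 0.1, 0 without a filter, 5 without a trend, 1 with names from the tag alone, 7 with features not summed and 0 to 2 with 1 library left out. With the replicate number as a block it was 0, and isotocin had a log2 difference of 0.68 with a standard error of 0.0901 (limma adjusted p = 0.604) and vasotocin 0.49 with 0.898 (0.923). The labels do not say that a number pairs libraries, and the replicate deviations of the 2 groups correlated across genes at 0.0231. Rescaling to a common median moved log2 differences by 0.024. With 2 libraries a group, the intervals of both hormone genes leave room for more than 3-fold differences.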
